A study of Mus musculus with 24 samples.

Results

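Glutamate, GABA and glycine receptor subunits are the proteins that assemble into the receptors for the 3 main fast transmitters of the brain, and their 50 genes were followed here in mice lacking Thumpd1. The 50 were every gene of 55450 in the table whose symbol names a subunit of these receptors, without regard to its value. They were 16 GABA-A, 3 GABA-rho, 5 glycine, 4 AMPA, 7 NMDA, 5 kainate, 2 delta and 8 metabotropic glutamate receptor genes. Thumpd1 encodes an RNA-binding partner of the acetyltransferase Nat10 that is needed to place N4-acetylcytidine on serine and leucine tRNAs. Ribosome-depleted total RNA was sequenced from 3 tissues, cerebellum, liver and testes, in wild-type animals (WT) and in animals with both Thumpd1 copies disrupted (KO), with 4 libraries in each of the 6 groups, and the comparison asked how transcript levels change in each tissue when this tRNA modification is lost. The study used animals of either sex at 6 to 12 weeks, and the sex behind each library is not given here. WT libraries came, unless noted otherwise by the study, from littermates matched in age. KO mice carried a germline deletion made with Cas9 in C57BL/6N eggs, so that all cells of the body lacked the gene, and the labels do not say from which of several founder lines a library came. The study calls its replicates biological, and the labels do not tie a library to an animal, so p-values measure the spread between these libraries.

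GABA-A and glycine receptors are pentameric chloride channels that inhibit neurons, and the choice of alpha, beta, gamma or delta subunits sets where a GABA-A receptor sits and how it responds. AMPA, NMDA and kainate receptors are tetrameric cation channels that excite neurons, delta receptors mostly act as synaptic organizers, and metabotropic glutamate receptors signal through G proteins, group I (such as Grm5) through Gq and groups II (Grm2, Grm3) and III (Grm4, Grm6, Grm7, Grm8) through Gi. In cerebellum, granule cells carry Gabra6 and Gabrd, and Golgi interneurons carry Grm2.

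Total counts per library lay between 16353797 and 37889615. Thumpd1 itself was at 406 to 539 counts in WT cerebellum and 0 to 2 in KO, at 248 to 325 and 0 to 4 in liver, and at 740 to 846 and 23 to 41 in testes, in the order of the labels. In cerebellum, libraries with neighbouring numbers (1 and 2, 3 and 4, 5 and 6, 7 and 8) resembled each other: the chi-square statistic per gene between them had a median of 4.14, against 8.15 for other pairs of a group. In testes the medians were 7.30 and 13.5, but WT libraries 1 and 2 were the least alike pair of their group (11.4). In liver they were 63.6 and 106, and neighbours ranged from 8.46 to 313, the highest value of all pairs, for WT libraries 3 and 4. The summed level of 6 choroid plexus markers was 1044 and 1070 CPM (counts scaled to the total of the library) in WT cerebellum libraries 1 and 2 and 10.3 in both 3 and 4, 13.5 and 13.1 in KO libraries 5 and 6, and 355 and 352 in 7 and 8. What the neighbours share is not given in the labels, and the subunit calls in cerebellum and testes are given below also with neighbours summed. Partner and marker genes and the tissue differences are not.

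In WT mice, 41 of the 50 genes had their highest mean level in cerebellum, 38 of them without overlap with the next tissue, and 9 had it in testes, 5 without overlap. None had it in liver, where 32 genes had at most 3 counts in every WT library. These levels are descriptions and were not tested. Levels are compared between genes only as CPM per kilobase of merged exons. On that scale the granule cell subunit Gabra6 led in WT cerebellum at 181 ± 5.23 (SD, n = 4), ahead of the presynaptic receptor Grm4 at 97.4 ± 2.85, the AMPA subunit Gria4 at 89.4 ± 4.38 and Gria1 at 81.2. The NMDA subunit Grin2c, typical of mature granule cells, was at 65.8 ± 2.57, and the obligatory NMDA subunit Grin1 at 52.2. Gabra6 was at 0 in all 16 liver and testes libraries. The summed level of 7 hepatocyte markers was at least 48445 CPM in liver and at most 0.44 CPM in cerebellum.

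**Figure D1:**
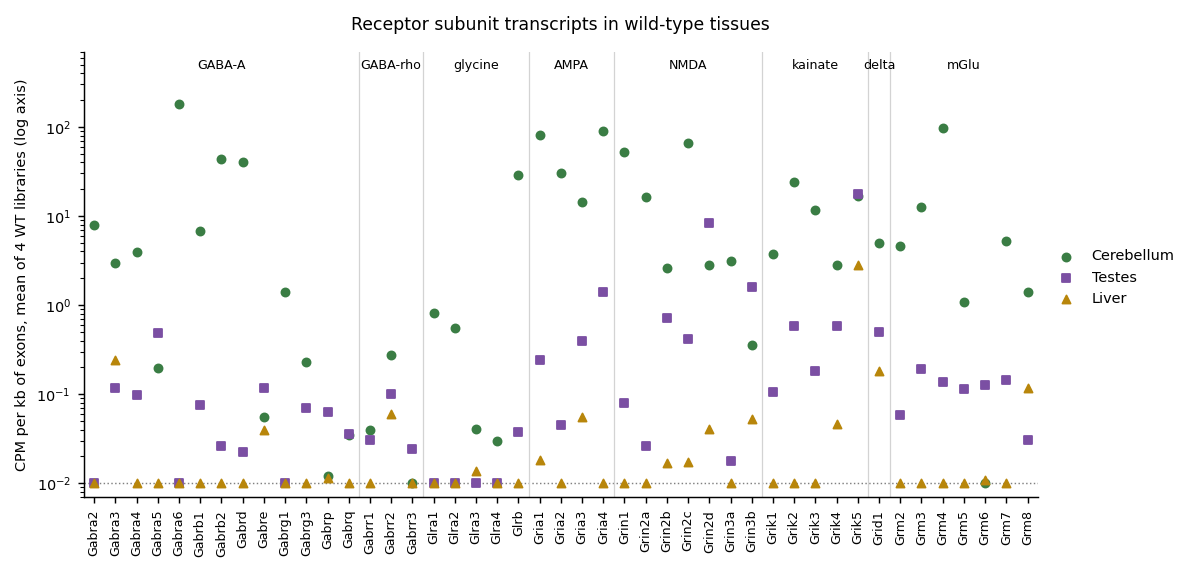
Mean level of 45 subunit genes in 4 WT libraries of cerebellum (circles), testes (squares) and liver (triangles), as CPM per kilobase of exons on a log axis, ordered by family; points on the dotted line are at or under 0.01. Most circles lie far above the other symbols, while Grik5 has cerebellum and testes at about the same height and Grin2d and Grin3b have testes on top.

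All 20 genes that passed the filter in testes also passed it in cerebellum, at other proportions. Grik5, a high-affinity kainate subunit that needs a partner such as Grik2 to form a channel, was the most abundant subunit per kilobase there (17.6 ± 0.34, SD, n = 4), close to its level in cerebellum (16.9 ± 0.53). Grin2d, an NMDA subunit of the embryonic brain, followed at 8.31 ± 0.56 CPM per kilobase, against 2.85 in cerebellum. An antisense gene, Gm45441, overlaps its exons and was at 61.6 to 68.5 CPM in WT testes but at most 0.087 CPM in WT cerebellum, so that reads of both could not be told apart if the counting ignored strand. Grin3b was at 1.58 CPM per kilobase in WT testes and 0.36 in cerebellum, but Tmem259, on the other strand of its exons, was at 118 to 138 CPM in WT testes and 69.8 to 83.7 CPM in WT cerebellum, with the same limit. In liver, Grik5 was again the highest subunit, at 2.82 ± 0.30 CPM per kilobase.

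In cerebellum, 41 of the 50 genes passed the filter of 1 CPM in at least 4 of 8 libraries, and 7 of these passed an adjusted p of 0.05 in limma with Benjamini-Hochberg adjustment over all 16225 genes tested. Gabra5, Glra2, Grik1, Grm4, Grm5 and Grm7 rose in KO and Gabra6 fell. The count was 4 to 11 when single libraries were left out (4 without WT replicate 1 or 3 or KO replicate 5, 11 without KO replicate 6) and 1 with neighbours summed. Over all genes tested 6.44% were called, 3.93% as higher in KO and 2.51% as lower. The median log2 change of the 41 genes was 0.055 and that of all genes -0.0059. WT and KO levels did not overlap for 9 of the 41, 8 higher and 1 lower in KO, against 13.8% of all genes (8.79% higher and 4.99% lower). For Gabra5, among the 8, this was fixed in advance, since only its KO libraries reached 1 CPM. The median size of the log2 change was 0.092 over the 41 genes and 0.095 over all genes. The 9 genes under the filter were Gabre, Gabrp, Gabrq, Gabrr1, Gabrr2, Gabrr3, Glra3, Glra4 and Grm6. Fewer cells of a type and less RNA per cell cannot be told apart in such bulk libraries.

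**Figure D2:**
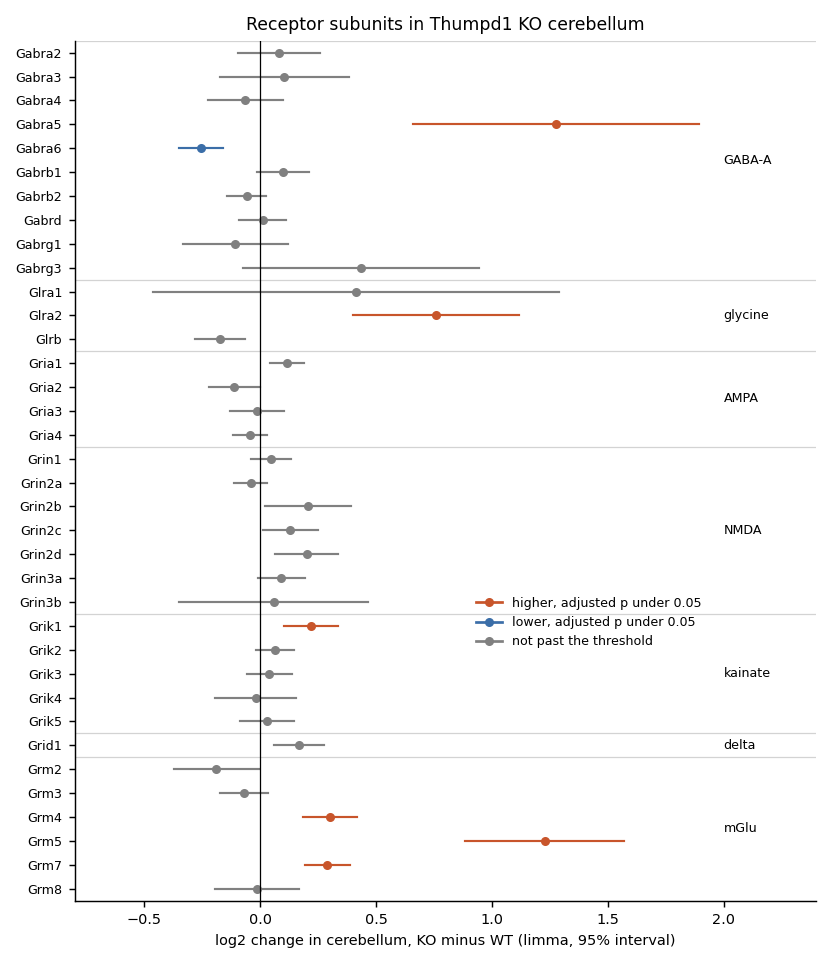
Log2 change between KO and WT cerebellum for 36 of the 41 subunit genes tested, from limma, with 95% intervals, grouped by family. Orange marks the 6 genes higher and blue the 1 gene lower in KO at an adjusted p under 0.05, and most grey intervals span 0 and stay narrow.

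Among GABA-A subunits 1 of 13 tested genes rose, 1 fell and 11 did not pass. Gabra6, the alpha subunit particular to granule cells, was at 454, 437, 442 and 466 CPM in WT cerebellum and at 358, 387, 354 and 406 CPM in KO. All 4 KO libraries lay below all 4 WT libraries. The log2 change was -0.26 ± 0.044 (SE), so that the level fell by 16.3% (adjusted p = 0.00556, limma). Gabra6 lies at mm10 chr11:42306437-42321072. As a share of all alpha subunit transcripts per kilobase, Gabra6 made up 70.4% ± 0.32 (SD, n = 4) in WT and 65.7% ± 1.5 in KO. These shares were not tested. Gabrd, the delta subunit that joins Gabra6 in extrasynaptic receptors, had a log2 change of 0.01 with a 95% interval from -0.090 to 0.11.

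Gabra5, an alpha subunit best known from hippocampal pyramidal neurons (mm10 chr7:57407672-57510059), was at 0.65, 0.69, 0.49 and 0.51 CPM in WT libraries and at 2.09, 2.45, 1.33 and 1.00 CPM in KO. KO libraries 5 and 6 were above 7 and 8. On the log2 scale the change was 1.28 ± 0.28 (SE, adjusted p = 0.0215, limma). The gene passed the filter only through its KO libraries, so that groups without overlap were fixed in advance. Its values rest on 9 to 40 counts per library. Gm9962, antisense to its exons, was at 0.040 to 0.22 CPM in WT libraries and 0.12 to 0.23 CPM in KO. Gabrg3, its neighbour on chromosome 7, had a log2 change of 0.43 that did not pass. Gabrq, the theta subunit of hypothalamic and brainstem neurons, stayed under the filter. It was at 0.10 to 0.27 CPM in WT, at 0.96 and 1.41 CPM in KO libraries 5 and 6, and at 0.20 and 0.10 CPM in 7 and 8. With a weaker filter of 0.2 CPM its log2 change was 1.07 (adjusted p = 0.410), where 4.82% of all genes were called. The other 11 GABA-A genes tested had log2 changes between -0.11 and 0.43.

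Of the glycine receptor genes, 3 were tested and 1 rose. Glra2, the alpha subunit of immature and some hindbrain neurons (chrX:165129017-165327393), was at 1.6, 1.86, 1.69 and 1.78 CPM in WT libraries and at 3.22, 3.73, 2.30 and 3.21 CPM in KO. Every KO library was above every WT library. The log2 change was 0.76 ± 0.17 (SE, adjusted p = 0.0200, limma). Glrb, the beta subunit that anchors glycine receptors to gephyrin and by far the most abundant of the family, was at 127 to 139 CPM in WT libraries and 110 to 128 CPM in KO, with overlap, and its log2 change of -0.17 ± 0.050 missed the threshold (adjusted p = 0.0585). It passed in 6 of 18 alternatives, among them DESeq2 (-0.18, adjusted p = 0.0139) and the fit without KO replicate 6 (-0.21, adjusted p = 0.0132). Glra3 stayed under the filter at 0.20 to 0.61 CPM in WT libraries and at 2.26, 2.45, 0.41 and 1.58 CPM in KO, and had a log2 change of 1.81 (adjusted p = 0.106) with the weaker filter. Glra1, the adult alpha subunit of spinal cord and brainstem, is named after its values were seen, because it differed within the groups more than between them. It was at 3.51, 2.55, 0.71 and 1.02 CPM in WT libraries and at 3.73, 3.06, 1.48 and 2.05 CPM in KO, so that libraries 1, 2, 5 and 6 were above 3, 4, 7 and 8. Its log2 change was 0.41 with a 95% interval from -0.46 to 1.29.

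No AMPA or NMDA subunit passed the threshold in cerebellum. Gria4, the most abundant AMPA subunit per kilobase and prominent in granule cells and Bergmann glia, was at 534 to 595 CPM in WT libraries and 520 to 549 CPM in KO, with overlap. Its log2 change was -0.045 with a 95% interval from -0.12 to 0.027. The other 3 AMPA genes had log2 changes between -0.11 and 0.12. Grin2c was at 317 to 348 CPM in WT libraries and 318 to 399 CPM in KO. Its log2 change was 0.13 ± 0.055 (adjusted p = 0.170), and without KO replicate 6 it was 0.19 (adjusted p = 0.00885). The other 6 NMDA genes had log2 changes between -0.040 and 0.21, and per kilobase Grin2c made up 75.3% ± 0.77 of Grin2 transcripts in WT and 76.6% ± 2.07 in KO.

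Kainate and delta subunits contributed 1 call. Grik1, a kainate subunit carried by Purkinje cells and other GABAergic neurons (chr16:87895900-88290265), was at 25.9, 25.2, 23.5 and 27.2 CPM in WT libraries and at 30.1, 30.3, 29.2 and 30.1 CPM in KO. All KO libraries were above all WT libraries by a small margin. On the log2 scale the change was 0.22 ± 0.053 (SE), a rise of 16.5% (adjusted p = 0.0307, limma). Grik2, the granule cell kainate subunit, was at 305 to 326 CPM in WT libraries and 312 to 348 CPM in KO, with a log2 change of 0.063 (95% interval -0.019 to 0.15).

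Metabotropic glutamate receptors held 3 of the 7 calls, all higher in KO, among 7 genes tested. Grm4, the group III receptor that damps release from parallel fibres (chr17:27422387-27521403), was at 567, 590, 602 and 569 CPM in WT libraries and at 667, 622, 788 and 734 CPM in KO. The KO libraries were all above the WT libraries, with 5 and 6 nearest to them. The log2 change was 0.30 ± 0.054 (SE), a rise of 23.1% (adjusted p = 0.00723, limma). Grm7, a low-affinity group III receptor of active zones (chr6:110645581-111567230), was at 31.3, 30.1, 31.2 and 31.6 CPM in WT libraries and at 37.4, 39.9, 37.0 and 38.4 CPM in KO. The 4 libraries of each group lay close together and apart from the other group, and the log2 change was 0.29 ± 0.045 (SE, adjusted p = 0.00304). An antisense gene, Gm20387, overlaps its exons and was at 0.97 to 1.05 CPM in WT libraries and 0.61 to 1.00 CPM in KO.

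Grm5, the group I receptor of forebrain neurons that is low in adult cerebellum (chr7:87584168-88134907), had the lowest p of the 41 genes and ranked 50 among all genes. It was at 10.7, 10.9, 10.8 and 11.5 CPM in WT libraries and at 31.3, 34.7, 21.4 and 20.8 CPM in KO. The WT libraries were almost equal, and KO libraries 5 and 6 stood above 7 and 8. On the log2 scale the change was 1.23 ± 0.16 (SE, adjusted p = 0.00105, limma), a 2.34-fold rise. Per kilobase it was at 1.07 ± 0.036 CPM in WT and 2.64 ± 0.68 in KO (SD, n = 4), far below Grm4 in both. The other 4 metabotropic genes tested did not pass.

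**Figure D3:**
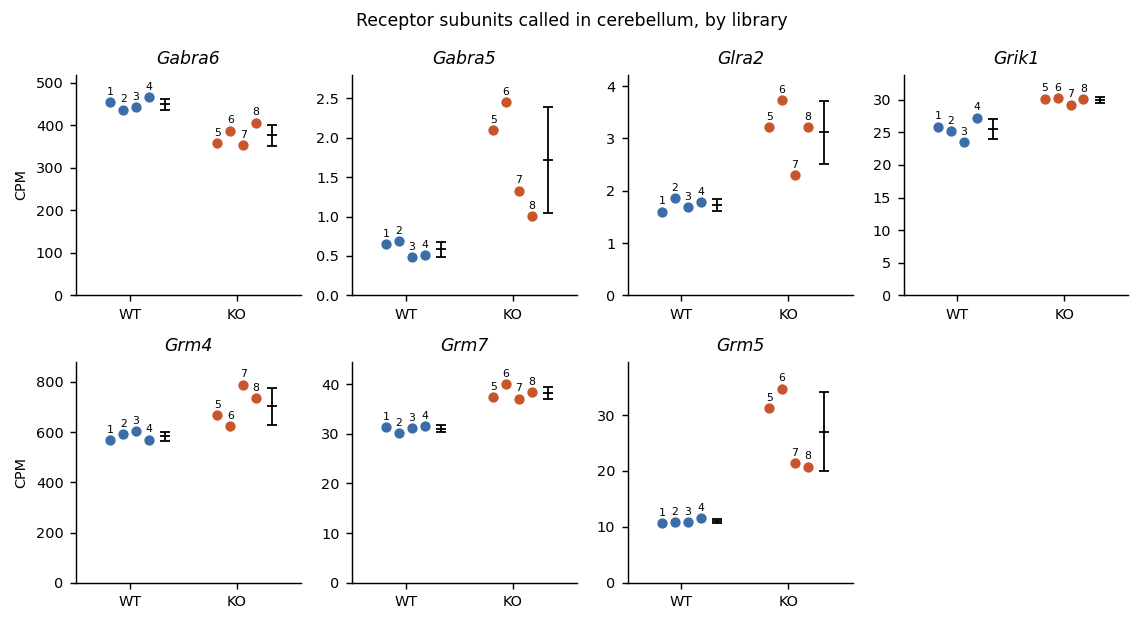
CPM of the 7 subunit genes called in cerebellum in each WT (blue) and KO (orange) library, with library numbers beside the points and bars for the mean and SD of 4 libraries. No gene shows overlap between groups, Gabra6 is the only one lower in KO, and for Grm5 and Gabra5 KO libraries 5 and 6 lie above 7 and 8. For Gabra5 the filter fixed the lack of overlap in advance.

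RefSeq promoter windows on GRCm38.p6 (250 bases before to 50 after a transcript start) were at hand for 34 of the 50 genes, 41 windows in all. They were searched on both strands for the element that Atf4 binds with C/EBP partners, TGATGNAA, because stress signalling, which Atf4 carries, is a question of the study. The element was in 3 of the 41 windows (7.32%), which belonged to Grm7 and Gabra6, and in 3.97% of all 32851 windows. The cyclic AMP response element TGACGTCA was in 0 of the 41 and in 1.79% of all, and the TATA element TATAAA in 5 of the 41 and in 13.6% of all. The 250 bases before the start are shown for both genes, 5′ to 3′ on the strand of the gene, with the element in capitals; the match of Gabra6 is on the opposite strand. It begins 180 bases before the start in Gabra6 (chr11:42321073-42321322, minus strand) and 82 in Grm7 (chr6:110645262-110645511, plus strand). The letters are a description, and the 2 genes changed in opposite directions.
Gabra6: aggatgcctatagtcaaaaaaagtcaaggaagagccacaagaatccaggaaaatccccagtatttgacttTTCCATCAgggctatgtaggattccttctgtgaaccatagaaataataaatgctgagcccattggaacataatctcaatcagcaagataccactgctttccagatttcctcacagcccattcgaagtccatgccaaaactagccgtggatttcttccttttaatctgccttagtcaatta
Grm7: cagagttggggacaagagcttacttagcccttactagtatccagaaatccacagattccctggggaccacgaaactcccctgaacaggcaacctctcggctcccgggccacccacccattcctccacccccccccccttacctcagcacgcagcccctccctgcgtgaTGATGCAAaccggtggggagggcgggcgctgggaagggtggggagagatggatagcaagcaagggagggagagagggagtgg

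Markers of brain regions outside the cerebellum were measured beside the low-level subunits. Of 12 midbrain markers 3 were tested and 2 rose (Tal1 and Th). Tal1 was at 0.46 to 1.01 CPM in WT libraries and 1.37 to 2.04 CPM in KO, and its KO libraries carried it past the filter. The summed level of the 12 markers was 17.3 to 23.7 CPM across WT libraries, 32.8 and 33.6 CPM in KO libraries 5 and 6, and 19.3 and 17.6 CPM in 7 and 8. Foxa1 and Foxa2 were at 0 in all 8 libraries, Nr4a2 made up 64.5% of the WT sum, and without it the sums were 6.15 to 8.86 CPM in WT libraries and 13.3, 12.0, 12.2 and 11 CPM in KO libraries 5 to 8, so that 5 and 6 no longer stood apart and all 4 were above WT. Of 12 forebrain markers 6 were tested and 2 rose, Nrgn from 2.04 to 23.6 CPM and Bcl11b from 1.45 to 4.51 CPM, while Emx1, Emx2, Dlx1, Dlx2 and Dlx5 stayed under 1 CPM. The forebrain sum was 116 to 130 CPM in WT libraries and 151 to 173 CPM in KO, 91.2% of it in WT from Ppp1r1b, and without Ppp1r1b it was 9.91 to 12.1 CPM in WT libraries and 24.9 to 48.5 CPM in KO. Of 11 hindbrain markers none was tested, with sums of 0.36 to 1.09 CPM in WT libraries and 0.47 to 2.04 CPM in KO. The part of these differences in the changes of Grm5, Gabra5 and Glra2 was not tested. Fits with the forebrain or the midbrain sum as a covariate cannot decide it. The forebrain sum did not overlap between genotypes, so a fit cannot tell it apart from genotype. Each sum also rests mostly on 1 gene that was not called, Ppp1r1b for the forebrain and Nr4a2 (log2 change -0.23, adjusted p = 0.691, limma) for the midbrain. Calls that held with the midbrain sum as a covariate included those of Gabra6, Grm5 and Glra2.

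**Figure D4:**
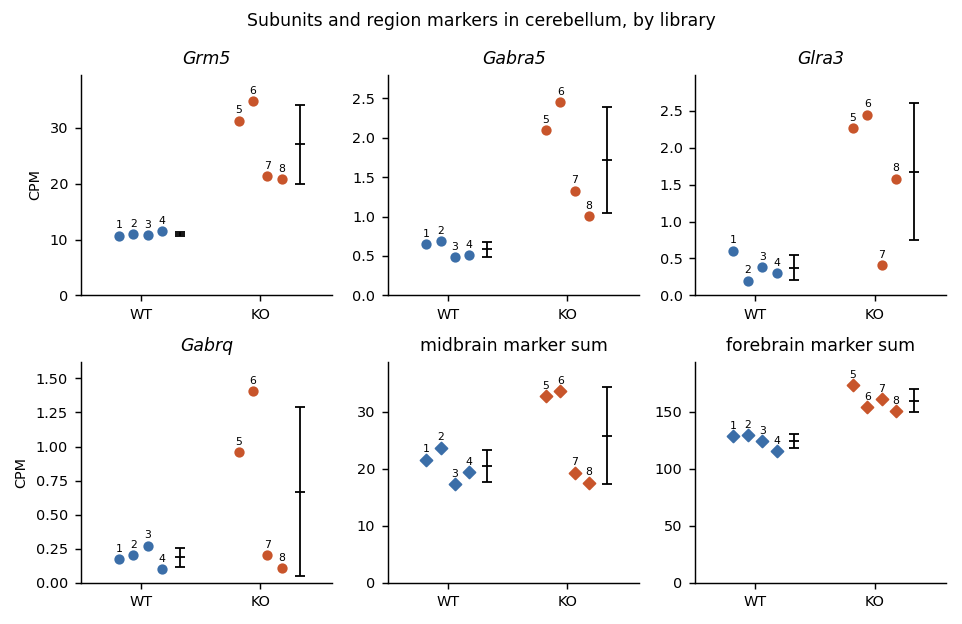
CPM of Grm5, Gabra5, Glra3 and Gabrq in each cerebellum library beside the summed CPM of 12 midbrain and 12 forebrain markers, with bars for the mean and SD of 4 libraries. KO libraries 5 and 6 are highest for the 4 genes and for the midbrain sum, though not for that sum without Nr4a2, while the forebrain sum of every KO library is above WT.

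With the forebrain sum as a covariate, which did not overlap between genotypes, 0 of the 41 genes passed and 3 of 16225 genes passed in all. In that fit the log2 change was -0.026 for Gabra6 (adjusted p = 0.973), 0.51 for Gabra5, 0.92 for Grm5, 0.28 for Grm4, 0.40 for Grm7, 0.31 for Grik1 and 1.03 for Glra2, with adjusted p of 0.493 or more. Without KO libraries 5 and 6 Grm5 was at 0.93 (adjusted p = 8.025e-05) and Gabra6 at -0.25 (adjusted p = 0.0134), while Gabra5 was at 0.86 (adjusted p = 0.0575), Glra2 at 0.63 (adjusted p = 0.0633) and Grik1 at 0.21 (adjusted p = 0.0649). Of 10 granule cell markers, which like Gabra6 mark these cells, Calb2 rose, Zic1, Neurod1 and Etv1 fell and 6 did not pass, Fat2 and Cbln3 among them, with a median log2 change of 0.013 and sums of 5997 to 6289 CPM in WT libraries and 5694 to 6069 CPM in KO. Of 13 Purkinje cell markers 2 rose and none fell (sums 7359 to 7795 and 7599 to 7975 CPM). Of 9 oligodendrocyte markers Mag and Cnp rose (sums 2575 to 3086 and 2991 to 3200 CPM), of 9 astrocyte and Bergmann glia markers Gfap and S100b rose (1724 to 1747 and 1719 to 1756 CPM), and of 7 interneuron markers Tfap2b fell (445 to 468 and 454 to 474 CPM).

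Grm5, Gabra5, Gabrg3, Grik5 and Grin2d lie on chromosome 7, as does Thumpd1, from which Grm5 is 31.6 Mb and Gabra5 62.2 Mb away. On that chromosome, Thumpd1 aside, 5.45% of 1267 tested genes were called in cerebellum.

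Dropping single libraries kept Gabra6, Grm4, Grm5 and Grm7 past the threshold in each of 8 cases. Gabra5 lost its call without WT replicate 1, 3 or 4 or KO replicate 5, Glra2 without WT replicate 1 or 3 or KO replicate 5 or 8, and Grik1 without WT replicate 1, 2 or 3 or KO replicate 5, 7 or 8. With neighbouring libraries summed, which leaves 2 against 2, Gabra6 alone passed (adjusted p = 0.0477), Grm5 was at an adjusted p of 0.0613, and 48 genes passed in all.

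Other proteins of the same synapses were taken from 2 lists. Of 20 GABA and glycine synapse genes tested in cerebellum, 2 rose and none fell, and of 41 tested glutamate synapse genes 8 rose and 1 fell, against 3.93% and 2.51% of all genes. Slc6a11, the GABA transporter of astrocytes outside the cerebellar cortex, rose from 45.2 ± 7.25 to 72.9 ± 14.3 CPM (SD, n = 4), with an adjusted p of 0.0123 and a log2 change of 0.66. Abat, which breaks GABA down, rose by a log2 change of 0.12 (adjusted p = 0.0359). Camk2a, the postsynaptic kinase of forebrain neurons, rose from 73.7 ± 3.04 to 101 ± 6.44 CPM (adjusted p = 0.000327), and Slc17a6, the vesicular glutamate transporter of subcortical neurons and deep nuclei, from 10.7 ± 2.49 to 26.7 ± 8.97 CPM (adjusted p = 0.00873). Cbln2, a cerebellin that links neurexins to delta receptors, was at 0.16 ± 0.11 CPM in WT libraries and 2.81 ± 0.89 CPM in KO (adjusted p = 0.00188), and passed the filter only through KO. The AMPA receptor partners Cnih3 and Grip2 rose by log2 changes of 1.27 and 0.47. The 1 gene that fell was Cacng4, an AMPA receptor auxiliary subunit (log2 change -0.19, adjusted p = 0.0447). In liver 2 of 12 tested GABA and glycine partners fell, and 1 of 17 glutamate partners rose and 1 fell. Over all liver genes 5.91% were called. In testes 1 of 14 and 3 of 29 rose, and 3 of each list fell, while 9.74% of all genes were higher and 10.7% lower.

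In liver 4 of the 50 genes passed the filter and none was called, against 5.91% of 12816 genes. An unadjusted p under 0.05 was found for 1, and edgeR and DESeq2 also called none, against 6.3% and 11% of all genes. Grik5 was at 16, 15.4, 12.4 and 14.4 CPM in WT libraries and at 17.3, 13.8, 21.5 and 17.8 CPM in KO. The groups overlapped through KO library 6, and the log2 change was 0.31 ± 0.12 (SE, adjusted p = 0.163, limma). Gabra3, Grid1 and Grm8 were near the filter, at 0.30 to 3.11 CPM, and their 95% intervals were wide, from -0.64 to 0.55, from -1.10 to 0.63 and from -0.65 to 1.44 on the log2 scale. The data cannot show modest changes of these 3 genes in liver.

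In testes 20 genes passed the filter and 3 were called, 1 higher and 2 lower in KO, against 20.5% of 19329 genes called in all (9.74% higher and 10.7% lower). Grin2b, an NMDA subunit of forebrain and of developing neurons (chr6:135713233-136173511), was at 16, 16.7, 19.2 and 19.2 CPM in WT libraries and at 12.8, 11.9, 10.3 and 13.5 CPM in KO. No KO library reached the lowest WT library. The log2 change was -0.66 ± 0.11 (SE), so that the level fell by 36.7% (adjusted p = 0.0045, limma). Antisense genes overlap its exons, of which Gm14329 was at 0.031 to 0.28 CPM in WT testes and the others at 0.

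Gria2, the AMPA subunit that blocks calcium entry (chr3:80681450-80802835), was at 0.72, 0.47, 0.90 and 0.72 CPM in WT libraries and at 2.21, 1.98, 1.91 and 1.07 CPM in KO. The KO libraries were all above WT, with replicate 8 nearest. On the log2 scale the change was 1.24 ± 0.27 (SE, adjusted p = 0.0118), and the gene passed the filter only through KO, with 15 to 70 counts per library. That route alone put every KO library above WT. The calls of Grin2b and Gria2 held without any single library, with adjusted p up to 0.0222 and 0.0359, and neither held with neighbouring libraries summed, where 1 gene passed in all.

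The most abundant subunits of testes did not pass. Grik5 was at 88.5 to 92.5 CPM in WT libraries and at 75.1, 78.9, 82.5 and 109 CPM in KO, and Grin2d at 51.2 to 60.2 CPM in WT libraries and at 46.5, 47.3, 47.6 and 62.4 CPM in KO. For both, KO library 8 was above every WT library and the other 3 KO libraries were below them all. Their log2 changes were -0.12 (adjusted p = 0.438) and -0.19 (adjusted p = 0.194), and without KO replicate 8 they were -0.24 (adjusted p = 0.0161) and -0.30 (adjusted p = 0.0194). Gm45441, on the other strand of Grin2d, was at 61.6 to 68.5 CPM in WT libraries and 56.7 to 59.3 CPM in KO. Gabra5, Gria4 and Grid1, each the leading tested member of its family, had log2 changes of -0.20, -0.048 and -0.25 with adjusted p of 0.559, 0.811 and 0.239. Of the other 12 genes, with log2 changes between -0.37 and 0.51, Grm7 came nearest, at 0.81 to 0.88 CPM in WT libraries and 1.06 to 1.52 CPM in KO (log2 change 0.51, adjusted p = 0.0574); like Gria2 it passed the filter only through KO. WT and KO did not overlap for 7 of the 20, 5 higher and 2 lower, against 28.6% of all genes (18.8% higher and 9.8% lower). For Gria2 and Grm7, both among the 5, this was fixed in advance, since only their KO libraries reached 1 CPM.

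Some cell markers in testes also differed between genotypes. Of 10 Sertoli cell markers 7 rose, with sums of 970 to 1149 CPM in WT libraries and 1233 to 1789 CPM in KO. Of 6 round spermatid markers 3 fell (sums 593 to 609 and 485 to 573 CPM), and of 8 elongating spermatid markers 4 fell (12823 to 13450 and 9445 to 11888 CPM). Other germ and somatic cell lists had 1 call each: of 7 Leydig cell markers 1 rose (1074 to 1175 and 997 to 1632 CPM), of 6 tested spermatogonia markers 1 rose (81.1 to 90.1 and 93.4 to 136 CPM), and of 8 spermatocyte markers 1 fell (1074 to 1201 and 1105 to 1241 CPM). KO library 7 had the highest Sertoli sum and the lowest spermatid sums and the lowest Grin2b. KO library 8 came next to it on these sums but had the highest Grin2b of the KO libraries. The part of cell composition in the 3 calls was not tested.

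**Figure D5:**
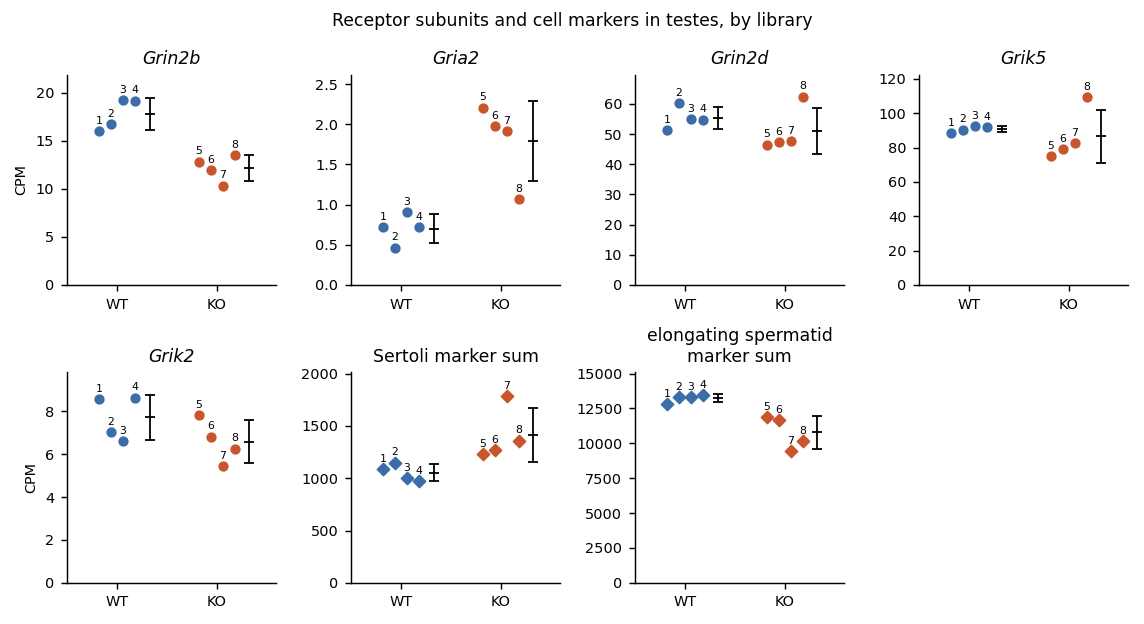
CPM of 5 subunit genes and summed CPM of Sertoli cell and elongating spermatid markers in each WT (blue) and KO (orange) testes library, with bars for the mean and SD of 4 libraries. Grin2b is lower and Gria2 higher in every KO library, KO library 8 lies apart for Grin2d and Grik5, and the Sertoli and spermatid sums do not overlap between groups. The filter fixed the order of the groups for Gria2 in advance.

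Whether the KO effect differed between tissues was tested as an interaction over all 24 libraries in limma with Benjamini-Hochberg adjustment. Between testes and cerebellum 6 of 20 genes differed, against 13.6% of 13753 genes. Grin2b fell in testes and had a log2 change of 0.21 in cerebellum, a difference of -0.91 ± 0.15 (SE, adjusted p = 0.000497). For Gria2 the difference was 1.32 ± 0.29 (adjusted p = 0.00388), with a log2 change of -0.11 in cerebellum, where it is the third AMPA subunit per kilobase. Gabra5 rose in cerebellum and had a log2 change of -0.20 in testes, a difference of -1.64 ± 0.40 (adjusted p = 0.00845). Gria2 in testes and Gabra5 in cerebellum had passed the filter only through KO, where they were high. These 2 differences therefore give no independent support, alone or within the count of 6. For Grik2 it was -0.44 ± 0.13 (adjusted p = 0.0248) and for Grin2d -0.48 ± 0.14 (adjusted p = 0.0268). Of 24 fits that each left out 1 library, Grik2 lost its call in 3, without testes WT replicate 1 or 4 or KO replicate 7 (adjusted p up to 0.114). Grin2d lost it in 4, without cerebellum WT replicate 1 or 2, testes WT replicate 2 or testes KO replicate 7 (adjusted p up to 0.0573). Neither passed in edgeR, and Grin2d did not pass with quantile normalization over the 24 libraries (adjusted p = 0.0564). The count of genes that differed was 4 to 7 over these 24 fits, lowest without testes KO replicate 7.

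Between testes and liver 1 of 2 genes differed, against 15.9% of 11611 genes: the log2 change of Grik5 was -0.12 in testes and 0.31 in liver, a difference of -0.53 ± 0.15 (adjusted p = 0.0199), which did not pass without liver WT replicate 3 (adjusted p = 0.0517) or liver KO replicate 7 (adjusted p = 0.0700). Between cerebellum and liver 0 of 4 genes differed and 0 had an unadjusted p under 0.05, against 7.52% of 11489 genes called by limma, and edgeR also called 0.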

How the data were processed

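Total RNA depleted of ribosomal RNA was sequenced from 3 tissues with a stranded kit. Per the labels, the authors aligned reads to mm10 with STAR and deposited RSEM expected counts per gene (GENCODE M21). Tool versions and the strand setting of the counting are not given in the sources used here. Of the values above 0, 12.3% to 16.6% per library were not whole. Groups came from the labels. The 50 genes and all gene lists were chosen with earlier results of these data known.

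In each tissue, genes with at least 1 CPM in at least 4 of 8 libraries were kept, values were quantile normalized in voom, and KO was compared with WT in limma 3.58.1 (R 4.3.3) with Benjamini-Hochberg adjustment, 2-sided, at 0.05. Tissue differences were fitted over 24 libraries with TMM factors on genes kept in both tissues. Text values are CPM of expected counts, which were rounded for edgeR 4.0.16 and DESeq2 1.42.0. Scripts were tested on simulated data. Genes named were those called, and the most abundant tested member per kilobase of each family without a call. Glra1, Glra3, Gabrq, Gabrd, Cacng4 and, in testes, Grm7 are named with their values already seen. A few genes that the counts include are not reported here by name or drawn. Alternatives were other normalizations, tools, filters, sample weights, marker covariates and left-out libraries. Neighbours summed and KO libraries 5 and 6 left out were chosen after seeing the data. Total counts were 16353797 to 37889615 per library, and intervals cover the spread between libraries.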

Additional observations from a re-analysis of the deposited data

Results flagged for a closer look

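In 3 of 44 groups of 4 libraries, 1 library stood apart from the other 3 by Dixon's criterion, which chance meets in about 1 in 20 groups. Grik1 was at 29.2 CPM in KO cerebellum replicate 7, against 30.1 to 30.3 CPM in the others. Grm8 was at 3.11 CPM in KO liver replicate 5, against 1.06 to 1.38 CPM, and Grin2d at 62.4 CPM in KO testes replicate 8, against 46.5 to 47.6 CPM.

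The KO effect differed between pairs of tissues by the interaction in limma. As testes minus cerebellum on the log2 scale, the difference was -0.91 for Grin2b, 1.32 for Gria2, -1.64 for Gabra5, -0.44 for Grik2 and -0.48 for Grin2d. As testes minus liver it was -0.53 for Grik5. Gria2 in testes and Gabra5 in cerebellum had passed the filter only through KO, so their differences give no independent support. Neither Grik2 nor Grin2d passed the test in testes or in cerebellum alone.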

How the results depend on the processing

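Of 584 alternative values for 31 single results, 509 kept direction and side of the threshold, 47 lost and 12 gained the call, and 16 turned sign. The 7 calls in cerebellum became 4 to 11 without single libraries (4 without WT replicate 1, WT replicate 3 or KO replicate 5, and 11 without KO replicate 6), 1 with neighbours summed and 0 with the forebrain covariate. That covariate also turned Grin2c to -0.054, Gria4 to 0.12 and Glrb to 0.099. The 3 calls in testes became 6 with sample quality weights, 0 with neighbours summed, and 3 to 5 without single libraries (5 without KO replicate 6 or 8). The 1 gene that differed between testes and liver became 0 to 1. Gabra3 in liver turned to 0.079 with TMM, 0.11 in edgeR and 0.11 in DESeq2, and ranged from -0.22 to 0.047 without single libraries, above 0 without WT replicate 2 or 3 or KO replicate 5 or 7. Grm8 in liver turned to -0.13 with weights and Grid1 ranged from -0.49 to 0.021, above 0 without KO replicate 5. In testes, Gria4 turned to 0.016 with weights and ranged from -0.17 to 0.046 without single libraries, above 0 without KO replicate 7 or WT replicate 1, and Gabra5 ranged from -0.38 to 0.028, above 0 without KO replicate 8. None of these turned values passed the threshold. Summing neighbours leaves fewer samples, and the cause of the other changes was not tested.

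Replicate numbers are shared between tissues. Same-numbered libraries had correlations of their deviations from -0.18 to 0.16, and 8 of 24 correlated best with their own number, so the numbers were not taken to pair them. With the replicate block, 0, 1 and 7 genes differed for cerebellum against liver, testes against liver and testes against cerebellum, where Grm5 was added (adjusted p = 0.0193). Genes under about 3 CPM rest on few counts, so modest changes of them were not detectable.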
